A study of Homo sapiens with 4 samples.

Results

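Collagens, matrix metalloproteinases (MMPs), their tissue inhibitors (TIMPs) and a small set of matricellular genes were followed in 4 RNA sequencing libraries of 2 human cancer cell lines. The members were taken by symbol, as every gene named COL, a number, A and a number, every numbered MMP, TIMP1 to TIMP4, and SPARC, SPARCL1, FN1, LOX, LOXL1, LOXL2, THBS1, THBS2 and TNC. That rule found 81 genes of 59533 analysed, of which 44 were collagens, 24 MMPs, 4 TIMPs and 9 others. MMP23A, counted with the MMPs, is annotated as a pseudogene. HCC1937 comes from a breast carcinoma, and THP-1 from a myeloid malignancy of the monocytic kind. Per the labels both are p53-/- lines carrying p53-R282W introduced by infection, so DAC and untreated libraries share these alleles. DAC (decitabine) is a deoxycytidine analogue that inhibits DNA methyltransferases. One HCC1937 library came from cells given 0.3 µM DAC for 5 days and its counterpart from untreated cells. One THP-1 library came from cells given 5 µM DAC for 2 days and its counterpart from untreated cells. The comparison asks how expression in these cells differs with and without DAC. Doses and times differed between the lines, so line, dose and duration cannot be told apart.

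Collagens are triple-stranded proteins that give the extracellular matrix its fibrils, networks and basement membranes. MMPs are zinc proteases that cut collagens and other matrix proteins, and TIMPs bind and block them. Matricellular proteins such as SPARC sit in the matrix and alter how cells attach to it, while lysyl oxidases cross-link collagen and elastin. In solid tumours much of the matrix comes from fibroblasts, but carcinoma cells make part of it, and monocytic cells are known for gelatinases.

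Values are FPKM, in which the reads of a gene are divided by its exon length and by the library's depth. The spacing of the values put the depth at about 18.7 M counted reads in each HCC1937 library, and at 19.6 M in the DAC library and 19.4 M in the untreated library of THP-1. For a gene of 2 kb, 1 FPKM then stands for 37.4 to 39.3 reads. All 10 breast epithelial markers reached 1 FPKM in both HCC1937 libraries, and all 10 myeloid markers did in both THP-1 libraries. Of the breast epithelial markers, 5 also reached 1 FPKM in THP-1 with DAC and 4 did untreated. Of the myeloid markers, 3 did in HCC1937 with DAC and 1 did untreated. The THP-1 columns seem to have been matched in by symbol from a different gene set, whose gene lengths may differ, so differences were taken within a line and levels were compared between lines only roughly. Each group is 1 library, so there is no spread between replicates and no p-value within a line. Intervals beside a ratio are exact 95% intervals on estimated reads, and they cover counting error only. In bulk RNA, fewer cells of a type and less RNA per cell cannot be told apart.

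A gene entered the comparison of a line (was kept) when either library reached 1 FPKM, and counted as higher or lower with DAC at a difference of at least 1 on the log2(FPKM + 1) scale, that is 2-fold. This scale understates the change of low genes. Of the 81 members, 38 were kept in HCC1937 and 25 in THP-1. These overlapped in 22, with 16 kept in HCC1937 alone, 3 in THP-1 alone and 40 in neither line.

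The stretches of DNA printed here, 6 in all, lie around transcription starts and show where the CG dinucleotide, which DNA methyltransferases methylate, occurs in genes whose values are given below. They were chosen after the values were seen: SPARC passed 2-fold in both lines, MMP14 and COL7A1 had 2 of the largest differences in HCC1937, COL9A2 was the most abundant member in THP-1, TIMP3 ran in opposite directions in the lines, and TNC was the member lower in HCC1937. Each runs 5′ to 3′ from 250 bases before to 50 bases after the RefSeq start on GRCh38.p14, on the gene's strand, in lower case with every CG in capitals. CG was counted on the strand shown, and it reads the same on the other strand.
SPARC: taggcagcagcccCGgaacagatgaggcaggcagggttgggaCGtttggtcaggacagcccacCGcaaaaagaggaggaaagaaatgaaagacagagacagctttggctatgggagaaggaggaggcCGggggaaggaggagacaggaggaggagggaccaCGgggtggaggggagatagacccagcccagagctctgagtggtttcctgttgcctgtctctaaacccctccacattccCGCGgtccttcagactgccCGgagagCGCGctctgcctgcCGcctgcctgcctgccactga
MMP14: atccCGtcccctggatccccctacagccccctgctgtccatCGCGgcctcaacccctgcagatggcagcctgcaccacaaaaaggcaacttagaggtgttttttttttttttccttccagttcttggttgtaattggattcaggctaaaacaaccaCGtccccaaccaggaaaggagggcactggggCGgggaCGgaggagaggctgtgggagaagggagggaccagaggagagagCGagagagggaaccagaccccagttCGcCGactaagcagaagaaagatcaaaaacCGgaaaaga
COL7A1: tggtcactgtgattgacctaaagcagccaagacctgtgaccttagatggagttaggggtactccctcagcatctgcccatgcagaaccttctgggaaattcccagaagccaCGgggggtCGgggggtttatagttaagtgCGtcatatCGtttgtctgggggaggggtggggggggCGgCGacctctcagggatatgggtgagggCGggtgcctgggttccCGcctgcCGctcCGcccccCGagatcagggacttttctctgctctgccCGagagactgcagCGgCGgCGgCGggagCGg
COL9A2: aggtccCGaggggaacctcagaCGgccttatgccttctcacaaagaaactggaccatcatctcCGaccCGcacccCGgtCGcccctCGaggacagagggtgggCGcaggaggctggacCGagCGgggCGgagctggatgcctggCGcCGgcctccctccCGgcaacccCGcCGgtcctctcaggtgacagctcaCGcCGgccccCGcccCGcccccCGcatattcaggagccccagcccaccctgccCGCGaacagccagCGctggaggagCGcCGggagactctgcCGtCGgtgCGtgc
TIMP3: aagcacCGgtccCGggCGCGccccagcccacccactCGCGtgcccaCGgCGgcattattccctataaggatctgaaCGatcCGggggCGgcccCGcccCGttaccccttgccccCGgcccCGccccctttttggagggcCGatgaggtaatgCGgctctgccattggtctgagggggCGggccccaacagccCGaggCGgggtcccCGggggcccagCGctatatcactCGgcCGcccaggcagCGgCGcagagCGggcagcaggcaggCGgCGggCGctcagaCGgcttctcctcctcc
TNC: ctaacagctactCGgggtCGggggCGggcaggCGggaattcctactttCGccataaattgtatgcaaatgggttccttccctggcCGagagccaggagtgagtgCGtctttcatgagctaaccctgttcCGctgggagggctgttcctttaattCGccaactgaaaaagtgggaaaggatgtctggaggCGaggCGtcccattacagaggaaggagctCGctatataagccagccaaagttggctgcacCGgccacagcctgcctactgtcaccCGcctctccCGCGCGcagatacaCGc
These windows lie at chr5:151686866-151687165 (SPARC, minus strand), chr14:22836335-22836634 (MMP14, plus strand), chr3:48595280-48595579 (COL7A1, minus strand), chr1:40317237-40317536 (COL9A2, minus strand), chr22:32801455-32801754 (TIMP3, plus strand) and chr9:115118108-115118407 (TNC, minus strand).

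The windows of MMP14 and SPARC held 10 and 11 CG, with a CG ratio (the CG count over that expected from the window's C and G content) of 0.44 and 0.40. Those of COL7A1, TNC, COL9A2 and TIMP3 held 17, 18, 29 and 31 CG, with ratios of 0.60, 0.73, 0.76 and 0.79. Among 35116 RefSeq promoters of the same length, 96% held at least 1 CG, the median was 14 CG, and 48.9% had a ratio of at least 0.6. The genes higher with DAC in HCC1937 thus included windows on both sides of the median. DNA methylation was not measured here, and the letters of a window say nothing of its methylation.

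In HCC1937 cells, 12 of the 38 kept members (31.6%) were at least 2-fold higher with DAC and 1 (2.63%) was lower. Over all 14058 genes kept in that line, 10.3% were higher and 1.44% lower. Among the 11492 kept protein-coding genes, a background chosen after seeing the data, 7.88% were higher and 0.757% lower. The members' median difference was 0.67, against 0.19 over all kept genes. Positive differences were found for 30 of 38 members (78.9%), against 66.2% of all kept genes. The 12 were 6 collagens (COL1A1, COL7A1, COL8A2, COL9A2, COL9A3 and COL16A1), 5 proteases (MMP2, MMP9, MMP14, MMP19 and MMP24) and SPARC. The member that was lower was TNC.

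Part of that count rests on genes that were under 1 FPKM untreated. There were 8 members kept through the DAC library alone, where a difference could go only 1 way, and 5 of them passed 2-fold, as did 992 of the 2149 genes kept in that way. Among the 30 members at 1 FPKM or more untreated, 7 were higher and 1 lower, with a median of 0.41. Over the 11909 genes with that untreated level, 3.87% were higher and 1.70% lower, with a median of 0.10. Without any filter, 70 members were above 0 in at least 1 HCC1937 library, and the DAC value was the higher in 55 of them (78.6%) and the lower in 12. Over all genes above 0 in that line, the DAC value was the higher in 68.8%. With other scalings of the 2 HCC1937 libraries the median over all kept genes was 0.01 (median-of-ratios) and -0.06 (upper-quartile). Under median-of-ratios scaling 11 members were higher and 1 lower, against 8.24% and 2.56% of all kept genes. Under upper-quartile scaling 9 were higher and 2 lower, against 7.56% and 3.41%.

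**Figure D1:**
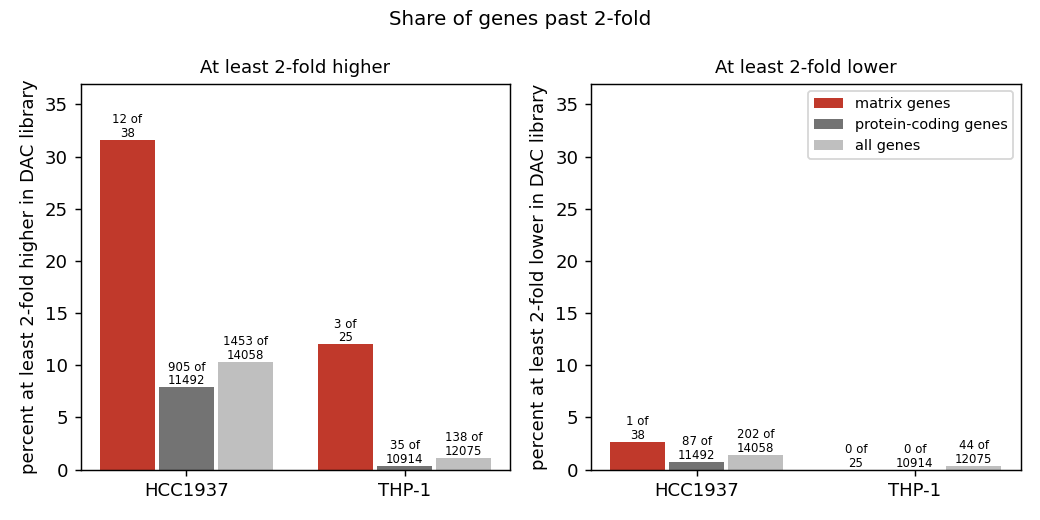
Percent of kept genes at least 2-fold higher (left) and at least 2-fold lower (right) in the DAC library than in the untreated library, for the matrix genes, all protein-coding genes and all genes, with counts above the bars. In HCC1937 the matrix genes stood at 31.6% higher against 10.3% of all genes, and in THP-1 at 12% against 1.14%, with no replicates and no error bars.

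In THP-1 cells, 3 of the 25 kept members (12%) were at least 2-fold higher with DAC and 0 were lower. Over all 12075 genes kept in THP-1, 1.14% were higher and 0.364% lower, and among 10914 protein-coding genes, the background chosen after seeing the data, 0.321% were higher and 0% lower. The 3 members were SPARC, COL1A1 and MMP9, and all 3 were also among the 12 higher in HCC1937. The overlap of calls over all genes is not given here. The median of the kept members was 0.28, against 0.07 over all kept genes, and 16 of 25 (64%) were positive, against 65% of all kept genes. The members SPARC and COL1A1 were kept through the DAC library alone, where 99 of 467 genes passed 2-fold. Of the 23 at 1 FPKM or more untreated, only MMP9 was higher and 0 were lower, where 0.336% of 11608 such genes were higher and 0.379% lower. Unfiltered, 67 members were above 0 in THP-1, and the DAC value was the higher in 45 (67.2%), against 64.3% of all genes.

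**Figure D2:**
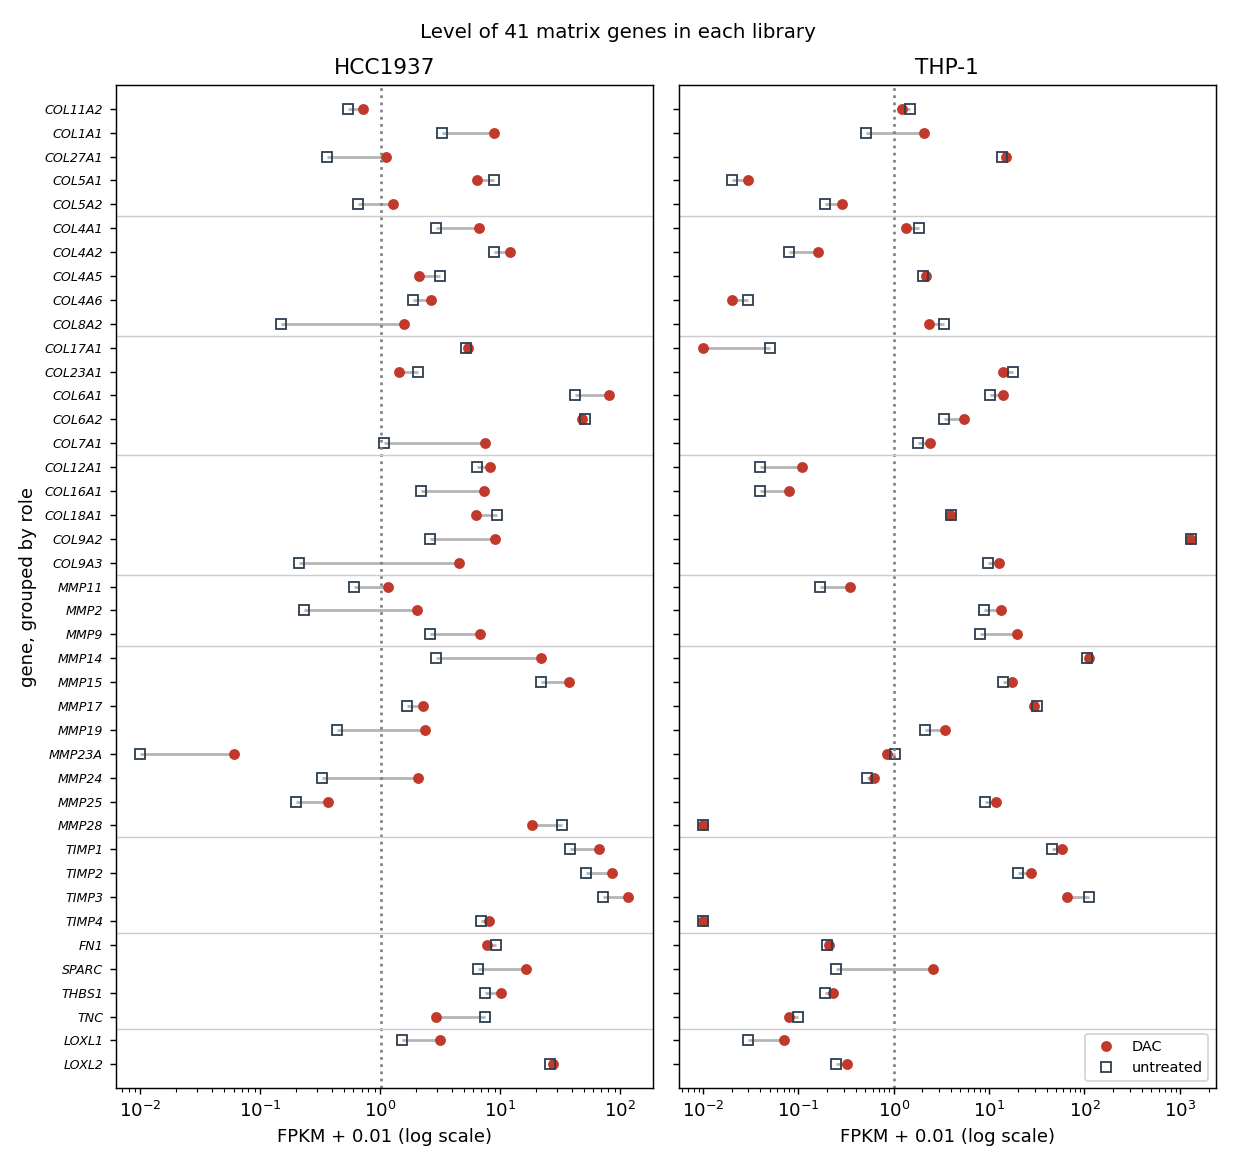
Level of the 41 members kept in at least 1 line, as FPKM + 0.01 on a log scale, in the DAC library (filled circles) and the untreated library (open squares) of HCC1937 (left) and THP-1 (right), grouped by role, with the axes of the panels on different ranges. The dotted line marks 1 FPKM. In HCC1937 most filled circles lie to the right of their square, with TNC at 2.94 FPKM with DAC and 7.52 FPKM untreated as the widest exception, while in THP-1 most pairs lie close together and SPARC at 2.57 FPKM with DAC and 0.24 FPKM untreated is the widest among kept members.

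Among the fibrillar collagens, COL1A1, the chain that makes up most of type I collagen (ENSG00000108821.13, hg38 chromosome 17, 50183289 to 50201632), stood at 8.86 FPKM with DAC and 3.24 FPKM untreated in HCC1937. In THP-1 it stood at 2.08 FPKM with DAC and 0.50 FPKM untreated. The log2(FPKM + 1) differences were 1.22 and 1.04, and the FPKM ratios were 2.73 (2.49 to 3.01) in HCC1937 and 4.16 (3.33 to 5.28) in THP-1. The DAC library was the higher in each line, and levels were low in THP-1. Upper-quartile scaling gave 0.96 in HCC1937, short of 2-fold. COL1A2, which codes for the other chain of type I collagen, was not kept: it stood at 0.10 FPKM with DAC and was listed at 0 untreated in HCC1937, and stood at 0.08 and 0.04 FPKM in the DAC and untreated libraries of THP-1. COL5A1 and COL5A2, chains of the type V collagen that sets fibril width, did not pass 2-fold in HCC1937. COL5A1 stood at 6.42 FPKM with DAC and 8.90 FPKM untreated, and COL5A2 at 1.26 FPKM with DAC and 0.65 FPKM untreated. In THP-1 both stayed at or under 0.28 FPKM. COL27A1, a fibrillar collagen of cartilage, stood at 1.12 FPKM with DAC and 0.35 FPKM untreated in HCC1937 (difference 0.65), and at 15.15 and 13.57 FPKM in the DAC and untreated libraries of THP-1. COL11A2, a type XI chain, was kept only in THP-1, at 1.20 FPKM with DAC and 1.46 FPKM untreated. The 7 fibrillar members not kept in HCC1937 reached at most 0.77 FPKM, and the 8 not kept in THP-1 at most 0.61 FPKM.

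Of the network collagens, COL8A2, a chain of the type VIII collagen of corneal basement membrane, passed 2-fold in HCC1937 at 1.58 FPKM with DAC and 0.14 FPKM untreated. Its difference was 1.18, on about 138 reads with DAC and 12 untreated, with a ratio of 11.3 (6.37 to 22.8). In THP-1 the same gene stood at 2.35 FPKM with DAC and 3.32 FPKM untreated, a difference of -0.37. COL4A1 and COL4A2 code for the chains of the widespread type IV collagen of basement membranes, and they lie head to head on chromosome 13. COL4A1 lay just under the threshold in HCC1937, at 6.61 FPKM with DAC and 2.91 FPKM untreated (difference 0.96). Its ratio of 2.27 (2.09 to 2.47) lay above 2-fold before the pseudocount. COL4A2 stood at 12.10 FPKM with DAC and 8.90 FPKM untreated (difference 0.40). The level of COL4A1 over that of COL4A2 was thus 0.546 with DAC and 0.327 untreated. In THP-1, COL4A1 stood at 1.35 FPKM with DAC and 1.81 FPKM untreated, and COL4A2 at 0.15 FPKM with DAC and 0.07 FPKM untreated, so the chain with the lower level in HCC1937 had the higher level there. COL4A5 and COL4A6, which are type IV chains of more restricted tissues, stayed under the threshold. COL4A5 stood at 2.11 FPKM with DAC and 3.16 FPKM untreated in HCC1937, and at 2.15 and 2.01 FPKM in the DAC and untreated libraries of THP-1. COL4A6 stood at 2.65 FPKM with DAC and 1.88 FPKM untreated in HCC1937, and at most at 0.02 FPKM in THP-1.

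COL7A1 forms the anchoring fibrils that tie epithelium to the tissue beneath it (ENSG00000114270.17, chromosome 3, 48564073 to 48595267). In HCC1937 it stood at 7.41 FPKM with DAC and 1.06 FPKM untreated, a difference of 2.03 and a ratio of 6.99 (6.08 to 8.11). The THP-1 values were 2.40 FPKM with DAC and 1.77 FPKM untreated, under the threshold at 0.30. COL6A1 and COL6A2, the chains of beaded microfilaments, were the most abundant collagens of HCC1937. COL6A1 stood at 81.19 FPKM with DAC and 41.96 FPKM untreated in that line, a difference of 0.94 just under the threshold. COL6A2 stood at 48.42 FPKM with DAC and 51.07 FPKM untreated (difference -0.08). The level of COL6A1 over that of COL6A2 was 1.68 with DAC and 0.822 untreated in HCC1937, so the order of the pair differed between the 2 libraries. In THP-1 both had higher values with DAC without passing 2-fold, COL6A1 at 14.03 FPKM with DAC and 10.11 FPKM untreated, and COL6A2 at 5.49 FPKM with DAC and 3.37 FPKM untreated. COL17A1, the collagen of hemidesmosomes that hold epithelial cells to their basement membrane, stood at 5.39 FPKM with DAC and 5.16 FPKM untreated in HCC1937 and at most at 0.04 FPKM in THP-1. COL23A1, a transmembrane collagen, stood at 1.44 FPKM with DAC and 2.08 FPKM untreated in HCC1937, and at 14.07 and 17.81 FPKM in the DAC and untreated libraries of THP-1.

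Type IX collagen decorates cartilage fibrils, and the genes of 2 of its chains passed 2-fold in HCC1937. COL9A3 (ENSG00000092758.17, chromosome 20, 62816244 to 62841159) stood at 4.53 FPKM with DAC and 0.20 FPKM untreated. Its difference was 2.20, on about 411 reads with DAC and 18 untreated, with a ratio of 22.6 (14.3 to 38.9), the highest ratio of the 12. COL9A2 (ENSG00000049089.14, chromosome 1, 40300487 to 40317813) stood at 9.05 FPKM with DAC and 2.61 FPKM untreated, a difference of 1.48 and a ratio of 3.47 (2.96 to 4.06). In THP-1 COL9A2 stood at 1269 FPKM with DAC and 1311 FPKM untreated (difference -0.05), rank 37 and rank 36 among all genes of those libraries. It made up 94.1% of the summed collagen FPKM with DAC and 94.8% untreated in that line. COL9A3 was far less abundant there, at 12.61 FPKM with DAC and 9.76 FPKM untreated (difference 0.34). COL9A2 over COL9A3 was 2.00 with DAC and 13.0 untreated in HCC1937, and 101 with DAC and 134 untreated in THP-1.

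COL16A1, a fibril-associated collagen, passed 2-fold in HCC1937 at 7.34 FPKM with DAC and 2.18 FPKM untreated (difference 1.39, ratio 3.37, 3 to 3.79), and stayed at or under 0.07 FPKM in THP-1. COL12A1, another of that class, stood at 8.21 FPKM with DAC and 6.41 FPKM untreated in HCC1937 and at most at 0.10 FPKM in THP-1. COL18A1, the basement membrane collagen from which endostatin is cut, stood at 6.28 FPKM with DAC and 9.37 FPKM untreated in HCC1937 (difference -0.51), and at 3.90 and 3.95 FPKM in the DAC and untreated libraries of THP-1. Exons of SLC19A1 on the opposite strand overlap 16.4% of the COL18A1 exons. Over all 44 collagens, the summed level was 226.52 FPKM with DAC and 154.72 FPKM untreated in HCC1937. In THP-1 it was 1349 FPKM with DAC and 1382 FPKM untreated, and without COL9A2 it was 80.14 FPKM with DAC and 71.27 FPKM untreated.

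MMP14 had the largest difference of any member in HCC1937. It codes for a membrane-bound protease that cuts fibrillar collagen and, together with TIMP2, activates pro-MMP2 at the cell surface (ENSG00000157227.12, chromosome 14, 22836557 to 22849027). It stood at 21.91 FPKM with DAC and 2.91 FPKM untreated, a difference of 2.55 and a ratio of 7.53 (6.58 to 8.64). In THP-1 MMP14 stood at 110.42 FPKM with DAC and 105.33 FPKM untreated (difference 0.07), and only COL9A2 was more abundant among the members in the DAC library. The level of MMP14 over that of TIMP2 was 0.256 with DAC and 0.0561 untreated in HCC1937, and 4.04 with DAC and 5.22 untreated in THP-1.

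MMP2 and MMP9 are the gelatinases, which cut denatured collagen and type IV collagen. MMP9 (ENSG00000100985.7, chromosome 20, 46008908 to 46016561) stood at 6.83 FPKM with DAC and 2.59 FPKM untreated in HCC1937. The THP-1 values were 19.80 FPKM with DAC and 7.97 FPKM untreated. The differences were 1.13 and 1.21 and the ratios 2.64 (2.12 to 3.31) and 2.48 (2.20 to 2.81), so it passed 2-fold in each line as deposited. In HCC1937 the difference of MMP9 was 0.95 under median-of-ratios and 0.88 under upper-quartile scaling, short of 2-fold. MMP2 stood at 2.03 FPKM with DAC and 0.22 FPKM untreated in HCC1937, a difference of 1.31. Its ratio was 9.23 (5.88 to 15.6) on about 187 reads with DAC and 20 untreated. It was under the threshold in THP-1, at 13.18 FPKM with DAC and 8.91 FPKM untreated (difference 0.52). MMP11, the stromelysin expressed in tumour stroma, stood at 1.15 FPKM with DAC and 0.60 FPKM untreated in HCC1937 and at most at 0.34 FPKM in THP-1. The interstitial collagenases MMP1, MMP8 and MMP13, the stromelysins MMP3 and MMP10, and MMP7, MMP12 and MMP26 reached at most 0.13 FPKM in HCC1937 and, with MMP11, at most 0.35 FPKM in THP-1.

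Of the other membrane-bound and secreted MMPs, MMP19 and MMP24 passed 2-fold in HCC1937. MMP19, a secreted MMP outside the classical groups, passed 2-fold in HCC1937 at 2.35 FPKM with DAC and 0.43 FPKM untreated (difference 1.23, ratio 5.47, 3.82 to 7.87), and stood at 3.40 and 2.11 FPKM in the DAC and untreated libraries of THP-1. MMP24, a membrane-bound MMP best known from the nervous system, passed 2-fold in HCC1937 at 2.05 FPKM with DAC and 0.32 FPKM untreated (difference 1.21, ratio 6.41, 4.28 to 10.2). Its THP-1 values were 0.61 FPKM with DAC and 0.52 FPKM untreated, under the 1 FPKM needed. MMP15, a membrane-bound relative of MMP14, stood at 37.65 FPKM with DAC and 22.07 FPKM untreated in HCC1937 (difference 0.74), the highest MMP level of the DAC library. Its THP-1 values were 17.31 FPKM with DAC and 14.08 FPKM untreated. MMP17 and MMP25 are held to the membrane by a lipid anchor. MMP17 stood at 2.25 FPKM with DAC and 1.68 FPKM untreated in HCC1937, and at 29.84 and 32.00 FPKM in the DAC and untreated libraries of THP-1. MMP25, known from leukocytes, stood at 11.69 FPKM with DAC and 8.98 FPKM untreated in THP-1, and at 0.36 and 0.19 FPKM in the DAC and untreated libraries of HCC1937. MMP28, an epithelial MMP, had the most negative difference among the proteases of HCC1937, at 18.41 FPKM with DAC and 32.51 FPKM untreated (-0.79), short of the threshold, and was listed at 0 in both THP-1 libraries. MMP23A, annotated as an unprocessed pseudogene, stood at 0.84 FPKM with DAC and 1.02 FPKM untreated in THP-1. Its near-identical copy MMP23B makes that value uncertain.

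Strand use in the counting is not given in the sources used here, so reads of a gene and of an overlapping gene on the opposite strand cannot be told apart. In the GENCODE 29 annotation, 16 of the 41 members kept in at least 1 line had exons overlapped on the opposite strand, 6 of them over more than 10% of their exon length. These were MMP9 (18.4%, SLC12A5-AS1), MMP24 (18.1%, MMP24OS), MMP19 (17.4%, TMEM198B), MMP25 (35.2%, MMP25-AS1), COL18A1 (16.4%, SLC19A1) and TIMP4 (10.3%, SYN2). SLC12A5-AS1 stood at 0.59 FPKM with DAC and 0.45 FPKM untreated in HCC1937. MMP24OS stood at 6.6 FPKM with DAC and 7.95 FPKM untreated, and TMEM198B at 2.04 FPKM with DAC and 1.16 FPKM untreated. The part of these neighbours in the values of MMP9, MMP19 and MMP24 was not tested.

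**Figure D3:**
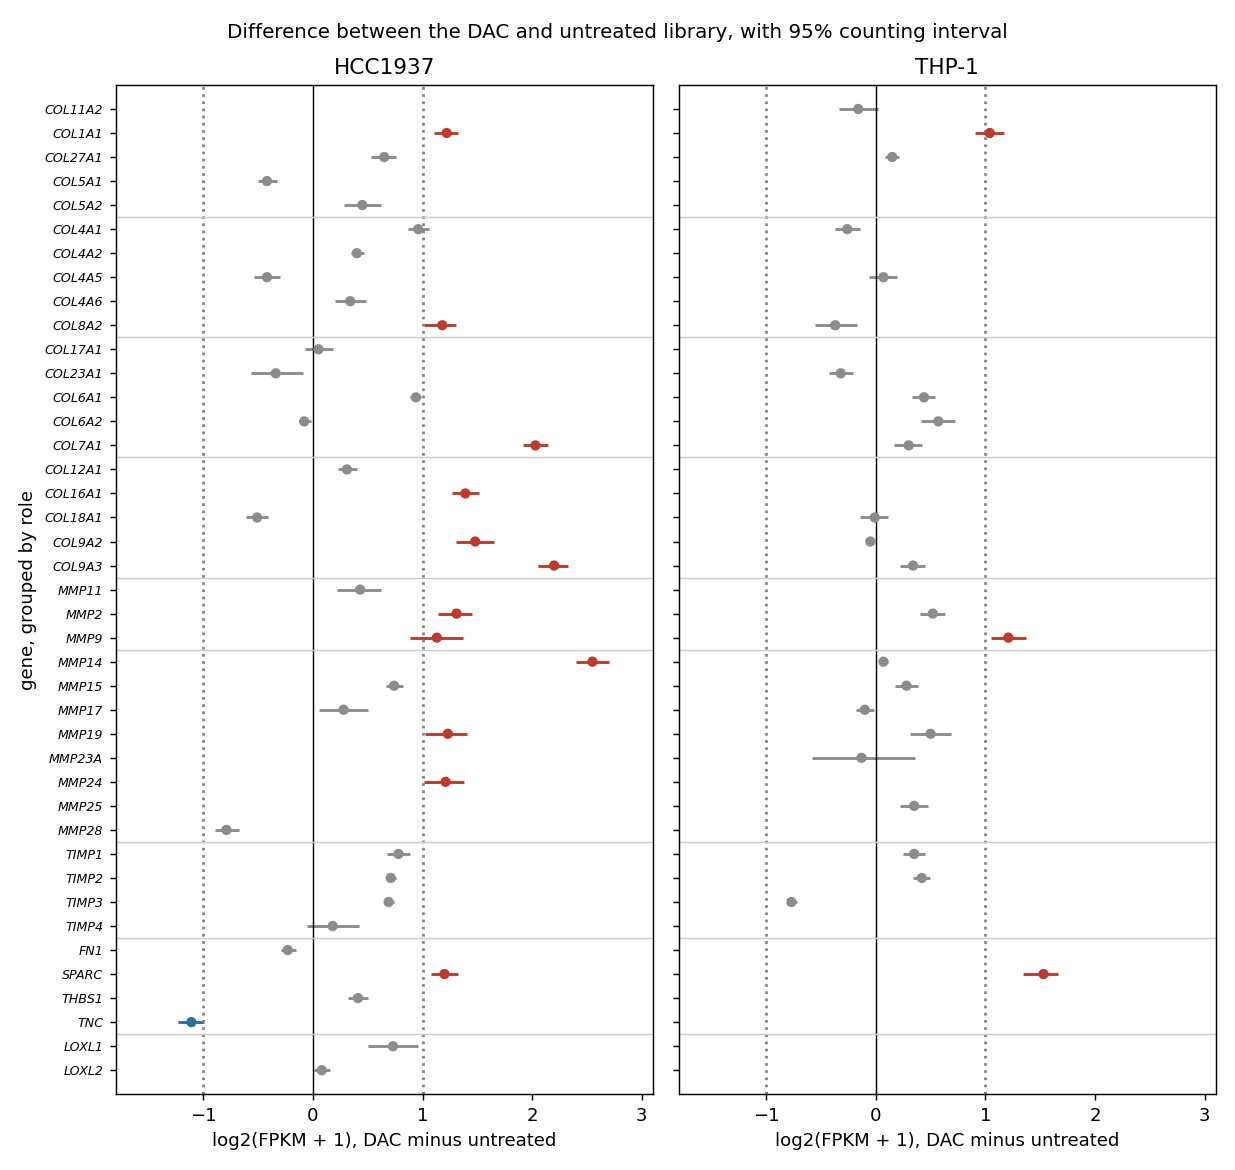
Difference between the DAC and untreated library on the log2(FPKM + 1) scale for each member kept in HCC1937 (left) or THP-1 (right), grouped by role, with horizontal bars for the 95% counting interval and dotted lines at 2-fold. Red points are at least 2-fold higher with DAC and the blue point at least 2-fold lower. In HCC1937 12 points are red, with MMP14 at 2.55 farthest right, and 3 are red in THP-1.

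None of the TIMP genes passed 2-fold in either line. In HCC1937, TIMP3, the inhibitor that binds to the matrix, was the most abundant member, at 117.18 FPKM with DAC and 72.16 FPKM untreated (difference 0.69). TIMP2, which also takes part in MMP2 activation, stood at 85.59 FPKM with DAC and 51.90 FPKM untreated (0.71). TIMP1 stood at 66.47 FPKM with DAC and 38.30 FPKM untreated (0.78). These 3 differences lay within 0.1 of each other and under the threshold, while TIMP4 stood at 8.01 FPKM with DAC and 6.94 FPKM untreated (0.18) and changed sign under both other scalings. In THP-1, TIMP3 stood at 65.04 FPKM with DAC and 111.24 FPKM untreated, the most negative difference of any kept member in that line at -0.77, with a ratio of 0.585 (0.566 to 0.604). TIMP1 stood at 58.00 FPKM with DAC and 45.40 FPKM untreated there, TIMP2 at 27.34 FPKM with DAC and 20.18 FPKM untreated, and TIMP4 was listed at 0 in both THP-1 libraries. TIMP3 was therefore higher with DAC in HCC1937 and lower with DAC in THP-1 beyond counting error, and 2-fold was reached in neither.

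SPARC, a collagen-binding matricellular protein (ENSG00000113140.10, chromosome 5, 151661096 to 151687165), passed 2-fold in both lines. In HCC1937 it stood at 16.34 FPKM with DAC and 6.54 FPKM untreated, a difference of 1.20 and a ratio of 2.50 (2.27 to 2.75). Under upper-quartile scaling the difference was 0.92, short of 2-fold. In THP-1 it stood at 2.57 FPKM with DAC and 0.24 FPKM untreated, a difference of 1.53 and a ratio of 10.7 (6.84 to 16.9) on about 244 and 23 reads. TNC (ENSG00000041982.15, chromosome 9, 115019578 to 115118257) codes for tenascin-C, a glycoprotein of remodelled matrix that weakens adhesion to fibronectin. It stood at 2.94 FPKM with DAC and 7.52 FPKM untreated in HCC1937, a difference of -1.11 and a ratio of 0.391 (0.353 to 0.432), and at most at 0.09 FPKM in THP-1. FN1, which codes for fibronectin, stood at 7.73 FPKM with DAC and 9.22 FPKM untreated in HCC1937, and THBS1, which codes for the matricellular protein thrombospondin-1, at 10.25 FPKM with DAC and 7.47 FPKM untreated. Both stayed at or under 0.22 FPKM in THP-1. SPARCL1 and THBS2 reached at most 0.02 FPKM in HCC1937.

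Of the lysyl oxidases, LOXL1, which acts on elastic fibres, stood at 3.16 FPKM with DAC and 1.5 FPKM untreated in HCC1937 (difference 0.73). LOXL2, which cross-links type IV collagen, stood at 27.80 FPKM with DAC and 26.17 FPKM untreated (difference 0.08), and this sign changed under both other scalings. LOX reached at most 0.11 FPKM in HCC1937, and all 3 reached at most 0.31 FPKM in THP-1.

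Across families, the summed MMP level was 95.81 FPKM with DAC and 63.63 FPKM untreated in HCC1937, and 208 and 182 FPKM in the DAC and untreated libraries of THP-1. The summed TIMP level was 277 FPKM with DAC and 169 FPKM untreated in HCC1937, and 150 and 177 FPKM in the DAC and untreated libraries of THP-1. In HCC1937, 9 MMPs reached 1 FPKM with DAC and 5 did untreated, while in THP-1 7 did with DAC and 8 untreated. Over all genes, 13673 reached 1 FPKM with DAC and 11909 untreated in HCC1937, and 11924 with DAC and 11608 untreated in THP-1. The MMP counts of THP-1 differ by the pseudogene MMP23A alone, at 0.84 FPKM with DAC and 1.02 FPKM untreated. As deposited, both sums in HCC1937 were thus higher with DAC, while in THP-1 only the MMP sum was. Of the TIMPs in THP-1, TIMP3 alone was lower with DAC (65.04 FPKM against 111.24 FPKM untreated), while TIMP1 and TIMP2 were higher.

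Beside the threshold in HCC1937, the members just inside were TNC (-1.11), MMP9 (1.13) and COL8A2 (1.18), and those just outside were COL4A1 (0.96), COL6A1 (0.94) and MMP28 (-0.79). In THP-1, COL1A1 (1.04), MMP9 (1.21) and SPARC (1.53) lay inside, and TIMP3 (-0.77), COL6A2 (0.57) and MMP2 (0.52) were the nearest outside. Each of the 12 higher members and of TNC in HCC1937, and each of the 3 in THP-1, had a counting interval of its ratio wholly beyond 2-fold. So did COL4A1 and COL27A1 (ratio 3.2, 2.51 to 4.07) in HCC1937, which were kept but not called. These intervals hold for the values as deposited, without other scaling.

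Of the 12 members higher in HCC1937, 10 were also kept in THP-1. Their median difference there was 0.42, against 0.28 over all members and 0.07 over all genes kept in THP-1. These 10 include SPARC, COL1A1 and MMP9. The THP-1 median over all genes that were higher in HCC1937 is not given here. Among the 22 kept in both lines, 15 had the same sign and 7 opposite signs. The same-sign share over all genes kept in both lines is not given here. Most kept genes were positive in each line (66.2% in HCC1937 and 65% in THP-1), and whether the lines share a response was not tested. MMP14, COL9A3 and COL7A1, which led in HCC1937, lay between 0.07 and 0.34 in THP-1. SPARC, COL1A1 and MMP9 were past 2-fold on both axes of the plot that sets the lines against each other. These joint calls depend on the scaling: SPARC was past 2-fold in both lines under median-of-ratios scaling and none of the 3 was under upper-quartile scaling.

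**Figure D4:**
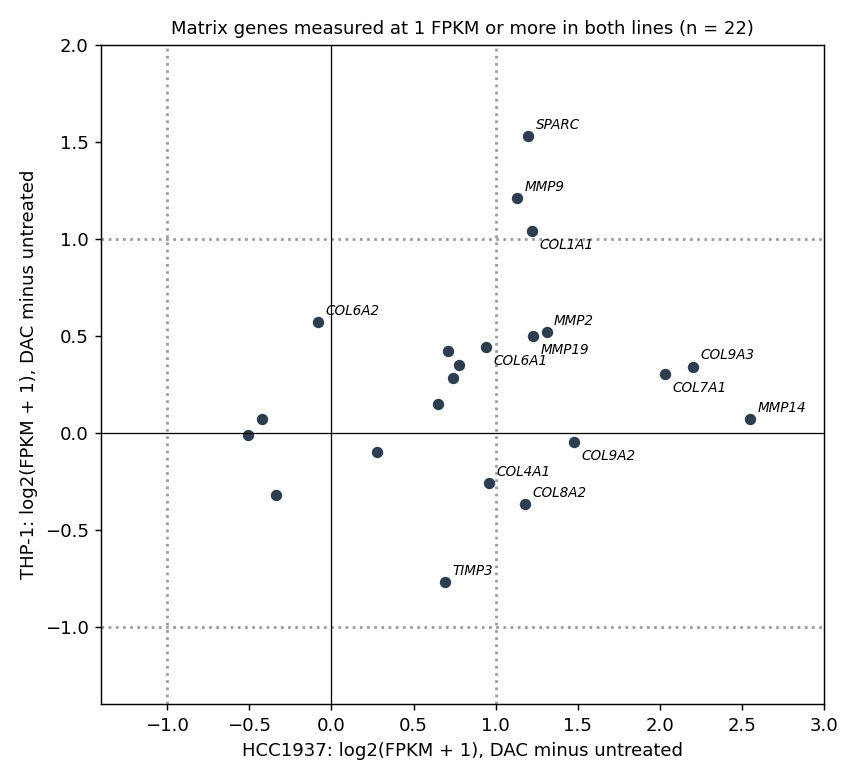
Difference between the DAC and untreated library on the log2(FPKM + 1) scale in HCC1937 (horizontal axis) and in THP-1 (vertical axis) for the 22 members kept in both lines, with dotted lines at 2-fold. SPARC, COL1A1 and MMP9 lie beyond 2-fold on both axes, and TIMP3, at 0.69 in HCC1937 and -0.77 in THP-1, lies lowest.

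Taking both lines in 1 model, with line as a block and DAC as the term tested, gives the only test this design allows. What is left over for a gene, with 1 degree of freedom, is how far the lines differ in their response. For p and SE, limma combines this spread with that of genes at similar levels, so neither rests on the gene's own spread alone. By limma with Benjamini-Hochberg adjustment over 13984 genes, 0% of genes were called in either direction at an adjusted p of 0.05, and 0 of the 41 members tested. At an unadjusted p under 0.05 stood 9 members, all higher with DAC, against 4.04% of all genes. They were SPARC, MMP9, COL1A1, MMP2, COL6A1, MMP19, TIMP2, TIMP1 and MMP15. The smallest unadjusted limma p was 0.000939 for SPARC, with a mean difference over the lines of 1.36 ± 0.17 (SE) and an adjusted p of 0.695. MMP9 followed at 1.17 ± 0.14 and COL1A1 at 1.13 ± 0.17 (SE), both with the same adjusted p by limma. These differences failed the correction although the DAC library was the higher in 2 of 2 lines for each.

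Genes that make, bind or cut the matrix were read from 5 lists, beside the 10.3% of all genes kept in HCC1937 that were higher, the 1.44% that were lower and their median of 0.19. Of 11 kept genes for other matricellular, elastic fibre and proteoglycan proteins, 6 were higher and 0 lower, with a median of 1.08. Kept through the DAC library alone were 4 genes, CCN5, BGN, TNXB and CCN3. All 4 are among the 6, and their differences could go only 1 way. Of all HCC1937 genes kept in that way, 992 of 2149 passed 2-fold higher, against 3.87% of genes at 1 FPKM or more untreated. CCN2, a connective tissue growth factor, stood at 13.25 FPKM with DAC and 2.72 FPKM untreated. Its relatives CCN5 and CCN3 stood at 5.47 and 3.06 FPKM with DAC, against 0.19 and 0.90 FPKM untreated. BGN, the proteoglycan biglycan, stood at 2.82 FPKM with DAC and 0.02 FPKM untreated, and TNXB, the tenascin-X gene, at 3.61 FPKM with DAC and 0.83 FPKM untreated. TNXB and TNC, both tenascin genes, thus passed 2-fold in opposite directions.

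Among 13 kept laminin and basement membrane genes of HCC1937, 3 were higher and 0 lower, with a median of -0.11, under that of all genes. All 3 were under 1 FPKM untreated, and so were kept through the DAC library alone. NID2 and NID1, the nidogens that link laminin to type IV collagen, stood at 5.81 and 3.56 FPKM with DAC, against 0.03 and 0.85 FPKM untreated. LAMC3, a laminin chain, stood at 3.73 FPKM with DAC and 0.88 FPKM untreated. The other 3 lists had 1 higher gene each, near the share of all kept genes (10.3% higher, 1.44% lower). Of 18 kept genes of collagen synthesis and processing, 1 was higher and 0 lower: LOXL4, a lysyl oxidase, at 6.18 FPKM with DAC and 0.51 FPKM untreated. LOXL4 was kept through the DAC library alone. Of 9 kept regulators of matrix proteases, 1 was higher and 0 lower, namely PLAT, the plasminogen activator of tissues, at 33.47 FPKM with DAC and 0.82 FPKM untreated. PLAT too was kept through the DAC library alone. Of 14 kept matrix receptors, ITGA5, a chain of the fibronectin receptor, was higher at 31.61 FPKM with DAC and 13.99 FPKM untreated, and ITGA3, a chain of a laminin receptor, was lower at 70.40 FPKM with DAC and 154.80 FPKM untreated. In THP-1, where 1.14% of all genes were higher, 0 genes of these 5 lists passed 2-fold, out of 18 kept for collagen synthesis, 9 receptors, 7 protease regulators, 7 basement membrane genes and 3 of the matricellular list.

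Since matrix genes are known from fibroblasts and endothelium, markers of those cells were read beside them. In HCC1937, 3 of 9 fibroblast markers reached 1 FPKM with DAC and 1 did untreated, with summed levels of 7.94 FPKM with DAC and 3.13 FPKM untreated. DCN was listed at 0 in both HCC1937 libraries, PDGFRA stood at 0.01 FPKM in both, and LUM reached at most 0.02 FPKM. The others were higher with DAC. THY1 stood at 2.34 FPKM with DAC and 0.02 FPKM untreated, TAGLN at 3.49 and 2.07 FPKM, and ACTA2 at 1.69 and 0.97 FPKM. PDGFRB stood at 0.24 FPKM with DAC and 0.04 FPKM untreated, and FAP at 0.08 and 0.02 FPKM. POSTN stood at 0.07 FPKM with DAC and was listed at 0 untreated. In THP-1, 2 of 9 reached 1 FPKM with DAC and 1 did untreated, with sums of 6.80 FPKM with DAC and 4.45 FPKM untreated. TAGLN stood there at 3.43 FPKM with DAC and 3.33 FPKM untreated, and PDGFRB at 1.78 and 0.38 FPKM. The other fibroblast markers reached at most 0.61 FPKM in THP-1. Of 5 endothelial markers, 4 reached 1 FPKM with DAC and 1 did untreated in HCC1937, with sums of 9.84 FPKM with DAC and 2.77 FPKM untreated. KDR and TEK were listed at 0 in the untreated library. With DAC, PECAM1 stood at 5.13, CDH5 at 1.88, TEK at 1.52, VWF at 1.29 and KDR at 0.02 FPKM. In THP-1, 1 of 5 reached 1 FPKM in each library, with sums of 20.27 FPKM with DAC and 21.11 FPKM untreated. That marker was PECAM1, at 20.12 FPKM with DAC and 20.93 FPKM untreated, which made up nearly all of these sums. Over all genes, 13673 reached 1 FPKM with DAC and 11909 untreated in HCC1937, and 11924 with DAC and 11608 untreated in THP-1. The part of other cell types in the differences of the collagen and MMP genes was not tested beyond these marker values.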

How the data were processed

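The 4 RNA sequencing libraries form 4 groups of 1. Per the labels, they were built with a TruSeq kit on mRNA purified from total RNA. The tools named, per the submitters' processing notes, are HTSeq, STAR, cutadapt and FastQC, with the build hg38. Versions, annotation and strand use are not given in the sources used here. The deposited table names no unit. The authors' values were read as FPKM. That reading rests on the values of short genes (exons of 50 to 250 bp in GENCODE 29) with few steps. Value times length fell within 0.1 of whole steps in 92.2% to 93.9% of these genes, and those steps also gave the depth. The depth was searched within a set range for the best agreement with whole steps. That share was thus fitted on the same values and is no independent check of the unit. The deposited THP-1 columns hold text in 37039 of 60612 lines and are kept as another unit, read like FPKM.

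Lines of 76 repeated symbols (1079 lines) were left out, leaving 59533 genes, 23440 with THP-1 values. Reads per gene were estimated from FPKM, exon length and depth, and gave Clopper-Pearson 95% intervals, approximate in THP-1. The members, gene lists and comparisons were chosen with earlier results of these data known. Every member kept in a line was named, and of each other list up to 5 called genes per line with the largest difference. The size rule and limma were run on simulated data in which each changed gene had the same fold in both lines. Such data do not cover a response that differs between the lines. On the real data, the rule and limma were tried with other scalings, pseudocounts, filters and sizes of change. A further check of the labels is not reported here. Positions come from GENCODE 29 on hg38 and promoters from RefSeq on GRCh38.p14. Tools were Python 3.11.15, scipy 1.17.1, numpy 2.4.6, pandas 2.3.3, matplotlib 3.10.9, R 4.3.3 and limma 3.58.1, which was fitted to log2(FPKM + 1) with an intensity trend.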

Additional observations from a re-analysis of the deposited data

Results flagged for a closer look

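There were 6 members with opposite directions in the 2 lines, with both counting intervals excluding equal levels. The share of all genes with such opposite directions is not given here. The values are the HCC1937 difference minus the THP-1 difference, each DAC minus untreated on the log2(FPKM + 1) scale. They were 1.55 for COL8A2, 1.53 for COL9A2, 1.46 for TIMP3, 1.22 for COL4A1 and 0.38 for MMP17, all higher with DAC in HCC1937 and lower with DAC in THP-1. COL6A2 ran the other way at -0.65. The intervals hold for the values as deposited, without other scaling. The HCC1937 difference of MMP17 was 0.28 as deposited, 0.14 under median-of-ratios and 0.07 under upper-quartile scaling. The difference between the lines was not tested, since each group is 1 library, and doses and times differed.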

How the results depend on the processing

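No paired analysis was possible because number 1 is the only replicate number of each group. Pairing by line is another matter, and is the block of the limma fit. Against 12 members higher in HCC1937, a pseudocount of 10 left 1 (0.932% of all genes), a filter at 5 FPKM 7 (7.04%), a 3-fold size 3 (3.76%), and a 1.5-fold size gave 20 (22%). Against 1 lower, upper-quartile scaling gave 2 (3.41% of all genes) and a 1.5-fold size 2 (5.91%). A pseudocount of 10 (0.221%) and a 3-fold size (0.213%) left 0. Against 3 higher in THP-1, a pseudocount of 10 (0.0248%) and a 3-fold size (0.248%) left 0 and a filter at 5 FPKM 1 (0.497%). A 1.5-fold size gave 1 lower member in THP-1, TIMP3 (1% of all genes), where 2-fold gave 0 (0.364%). These alternatives set the size or level asked for by their construction; the cause for upper-quartile scaling was not tested. Upper-quartile scaling put COL1A1 (0.96), SPARC (0.92) and MMP9 (0.88) just under the threshold of 1 in HCC1937, and median-of-ratios scaling put MMP9 (0.95) there and left COL1A1 in THP-1 under it by less than the rounding (1.00). No called member changed sign under the scalings and pseudocounts tried, and of all single differences under these settings 125 stayed within their counting interval and 127 did not. Of members that were not called, COL17A1, LOXL2 and TIMP4 in HCC1937 changed sign under both scalings, and MMP14 in THP-1 under median-of-ratios scaling. The count of limma calls was 0 in each of the 7 alternatives. The check of CG content over all members was not run, because only 55 of 81 (67.9%) had a promoter entry, short of the 80% required. With 1 library a group, depth limits only the counting error, and the spread between cultures is unknown.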
